A study of Mus musculus with 36 samples.

Results

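Lung was compared with 4 other organs of mice that had received control IgG, to find which genes were higher or lower in lung than in kidney, liver, skeletal muscle and heart. Members were 15 of the 36 bulk RNA-sequencing libraries of the study, 3 for each of the 5 organs, and every lung level was set against the mean of the 4 organ means. All animals were C57BL/6 mice bearing an MC38 tumor, which grows from a mouse colon carcinoma line, and they were matched for age and sex. The control animals had been given IgG where the treated animals received both anti-PD1 and anti-CTLA4, high-dose, abbreviated ICB for immune checkpoint blockade. No group without a tumor and no group without any antibody was used, so every library carries both conditions. Of 18781 rows in the deposited table, 14561 genes entered the comparison because they reached at least 1 FPKM (fragments per kilobase of gene, scaled to library size) in at least 3 libraries of 1 of these organs.

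The lung exchanges gases across a thin wall made of flat alveolar type 1 cells and a dense capillary bed. Cuboidal alveolar type 2 cells secrete surfactant, a mixture of phospholipids and the surfactant proteins A, B, C and D that lowers surface tension and takes part in defense. The airways are lined by club cells, which secrete secretoglobins and metabolize foreign compounds, and by ciliated cells, which move mucus. Macrophages live on the alveolar surface, and large numbers of white blood cells pause in the lung capillaries. Kidney, liver, muscle and heart, in contrast, are rich in mitochondria.

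The libraries held 19012513 to 23960764 reads, recovered from the FPKM values. The summed levels of hepatocyte, kidney tubule, skeletal muscle fiber, cardiomyocyte and alveolar type 2 genes were each highest in the organ of that name, though single members were not. The 10 hepatocyte genes summed to between 97080 and 113300 FPKM in liver and to between 5.84 and 43.7 FPKM in lung, and the 10 kidney tubule genes summed to at most 5.38 FPKM in lung. In lung 1.58% to 3.24% of reads came from mitochondrial genes, against 4.10% to 23.3% in the other organs, and hemoglobin genes took 0.184% to 1.88% in lung and 0.00558% to 0.255% elsewhere. Within lung, replicate 3 was lowest in neutrophil, platelet and erythroid genes but not in T or NK cell genes, with a mean log2(FPKM + 1) over 9 neutrophil genes of 3.20 against 5.97 and 5.75 in the other 2 libraries. Heart replicate 2 held 232 reads of Scgb1a1, a gene of airway club cells, which is 0.000968% of its reads. Nothing in the labels ties the libraries of a group to separate animals, so the p-values reflect sample-to-sample spread alone, and that spread may be technical. In whole tissue, fewer cells of a type and less RNA per cell cannot be told apart.

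Sequences upstream of genes that were high in lung are shown here because these genes moved together and because NKX2-1, a homeodomain factor of lung epithelium, and FOX factors are known regulators of surfactant genes. Each run ends just before the start of the gene, holds up to 250 bases, reads 5′ to 3′ along the gene, and comes from RefSeq (GRCm38.p6). Capitals mark a match on either strand to 1 of 4 motifs that were searched: CTCAAG (the core bound by NKX2-1), TGTTTAC (bound by FOX factors), GCGCATGC (bound by NRF1) and TCAAGGTCA (bound by estrogen-related receptors). The first 4 sequences belong to genes of type 2 cells, Scgb3a1 is a gene of airway secretory cells and Ager is a gene of type 1 cells. Those first 4 all hold a match and do not represent the type 2 list. Of its 14 promoters 3 held CTCAAG and 2 held TGTTTAC, and most held no match.
Sftpa1 (chr14:41131538-41131781, forward strand): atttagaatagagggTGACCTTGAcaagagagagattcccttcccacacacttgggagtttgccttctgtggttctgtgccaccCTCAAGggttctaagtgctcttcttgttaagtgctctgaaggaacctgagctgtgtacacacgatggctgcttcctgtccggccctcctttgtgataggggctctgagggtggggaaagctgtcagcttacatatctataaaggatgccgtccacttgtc
Sftpb (chr6:72304360-72304609, forward strand): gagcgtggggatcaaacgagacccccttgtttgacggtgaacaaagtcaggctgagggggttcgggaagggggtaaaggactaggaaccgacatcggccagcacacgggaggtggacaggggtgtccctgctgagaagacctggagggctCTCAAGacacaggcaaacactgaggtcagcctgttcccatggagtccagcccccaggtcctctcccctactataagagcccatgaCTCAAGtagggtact
Sfta2 (chr17:35649458-35649707, forward strand): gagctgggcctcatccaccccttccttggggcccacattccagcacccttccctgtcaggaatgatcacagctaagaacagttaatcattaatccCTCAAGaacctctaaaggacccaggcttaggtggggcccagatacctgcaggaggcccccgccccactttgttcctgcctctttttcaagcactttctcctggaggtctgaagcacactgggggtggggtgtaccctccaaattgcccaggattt
Lamp3 (chr16:19706376-19706615, reverse strand): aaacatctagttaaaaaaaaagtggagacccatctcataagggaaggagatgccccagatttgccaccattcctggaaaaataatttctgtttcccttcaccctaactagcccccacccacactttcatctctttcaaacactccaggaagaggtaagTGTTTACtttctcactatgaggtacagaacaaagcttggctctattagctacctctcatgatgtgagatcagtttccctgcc
Scgb3a1 (chr11:49663345-49663594, forward strand): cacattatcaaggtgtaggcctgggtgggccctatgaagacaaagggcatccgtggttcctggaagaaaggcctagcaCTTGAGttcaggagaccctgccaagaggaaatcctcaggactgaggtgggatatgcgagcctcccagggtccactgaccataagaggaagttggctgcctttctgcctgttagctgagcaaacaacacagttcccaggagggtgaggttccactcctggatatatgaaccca
Ager (chr17:34597600-34597849, forward strand): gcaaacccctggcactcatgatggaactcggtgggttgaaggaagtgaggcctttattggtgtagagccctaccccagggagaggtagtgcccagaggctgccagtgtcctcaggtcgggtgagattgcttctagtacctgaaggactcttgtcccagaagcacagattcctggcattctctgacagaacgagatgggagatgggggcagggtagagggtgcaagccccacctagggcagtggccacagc

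The CTCAAG core occurred once upstream of Sftpa1, Sfta2 and, as its reverse complement, Scgb3a1. Sftpb held 2 copies, which started 100 and 15 bases before the annotated start. The stretch upstream of Lamp3 held TGTTTAC, the stretch upstream of Sftpa1 also held the reverse complement of TCAAGGTCA, which shares no base with the CTCAAG match, and that of Ager held none of the 4 motifs. CTCAAG and TCAAGGTCA can overlap by the letters TCAAG. Of 32851 promoters of this length in the table, 13.3% held CTCAAG, 3.17% TGTTTAC, 2.26% GCGCATGC and 0.387% TCAAGGTCA. Among the 13694 promoters of the genes tested, from which the next sets come, the shares were 12.4%, 2.52%, 3.78% and 0.285%. Among 1106 promoters of genes higher in lung than in each other organ the shares were 13.7%, 2.71%, 0.814% and 0.452%. Among 482 promoters of genes lower in lung than in each they were 12% (58 promoters), 3.11%, 6.02% and 0.415%. CTCAAG was thus about as common in the promoters of lung genes as in all promoters, and a match is a description, not a site. The sequences cover 10747 of the genes tested, and Sftpc, Sftpd, Scgb1a1 and Foxj1 are named without one.

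Of the 14561 genes, 4531 (31.1%) were higher in lung and 5816 (39.9%) were lower, by limma's moderated test at an adjusted p under 0.05. Differences are given as log2(FPKM + 1) in lung minus the mean of the 4 organ means ± SE, with 3 lung libraries and 12 others, a scale that understates differences of low genes. The median over all genes was -0.11. The balance of the calls depends on the scaling: on a TPM scale (every library scaled to the same sum of FPKM) the median of all genes shifted up by 0.84, and 9290 genes were higher and 2654 lower, so that 77.8% of the calls were higher in place of 43.8%. With each library scaled to a common sum without mitochondrial genes the shift was 0.57, with 7868 genes higher and 3278 lower (70.6% higher). A total of 1186 genes (8.15%) passed the test against every single organ and differed by at least 1 on the log2 scale from each, and these are called higher in lung than in each organ. By the same rule 564 genes (3.87%) were lower in lung than in each. On the TPM scale these counts were 2684 and 94. All 3 lung libraries lay above all 12 others for 2110 genes (14.5%) and below them for 1677 genes (11.5%). The filter admitted 902 genes only through lung, among them 584 of the 1186, and by itself favored a higher level in lung for those. The number of such genes is therefore given below for every list whose counts are reported and that holds 3 or more of them.

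**Figure D1:**
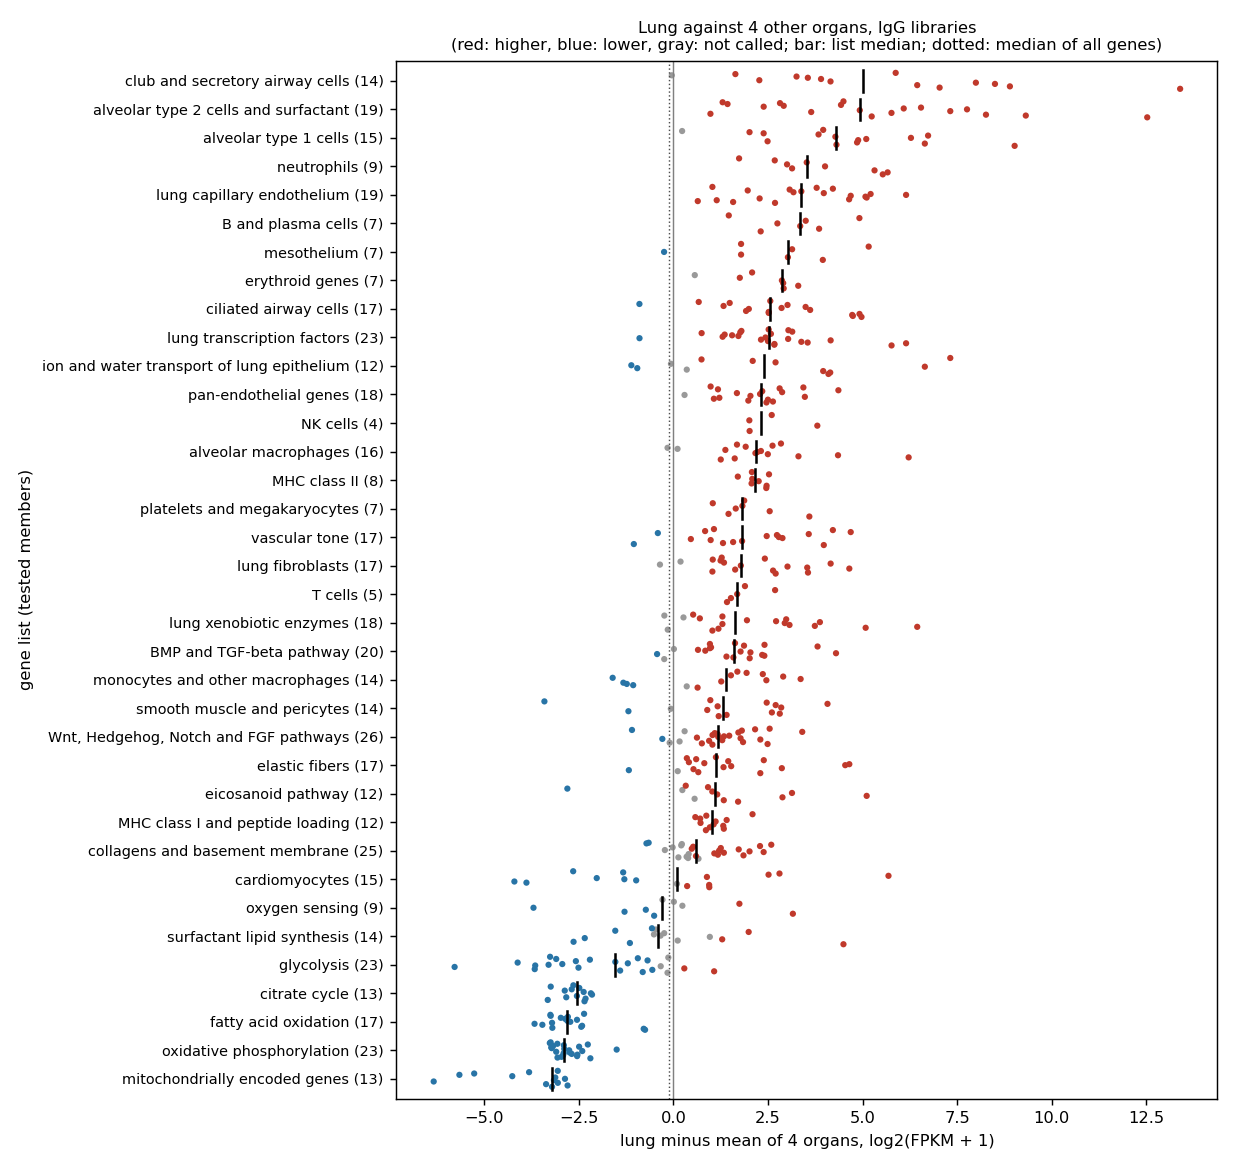
Each point is a tested member of a gene list, placed at its lung level minus the mean of 4 organs on the log2(FPKM + 1) scale, in red where higher, blue where lower and gray where not called. Lists are ordered by their median (black bar), from 5.01 for club and secretory airway cells to -3.21 for mitochondrially encoded genes, and the dotted line is the median of all genes, -0.11.

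Genes of alveolar type 2 cells and surfactant were higher in lung, 19 of 19 tested with a median of 4.93, beside 31.1% and -0.11 for all genes. Of the 19, 8 were admitted only through lung, and the other 11 were also all higher. Sftpc, which encodes surfactant protein C, a small hydrophobic protein of the surfactant film, measured 12700, 10800 and 11270 FPKM in the 3 lung libraries. It was at 0 in all 3 kidney libraries and between 0.118 and 7.12 FPKM in the other 9. All 3 lung libraries lay far above all others (12.53 ± 0.36, adjusted p = 1.85e-12). Sftpa1, a collectin that binds microbes and surfactant lipid, measured 704, 809 and 887 FPKM and at most 1.13 FPKM elsewhere (9.32 ± 0.12, adjusted p = 1.20e-15). Its relative Sftpd measured 378, 546 and 370 FPKM (8.26 ± 0.13), with 1.55 to 2.65 FPKM in liver and at most 0.298 FPKM in the other 3 organs. Sftpb, whose product packs surfactant membranes and is needed for breathing at birth, measured 28.4, 38.1 and 46.8 FPKM. It was at 0 in 10 of the 12 other libraries and at most 0.0279 FPKM in the other 2 (5.24 ± 0.11, adjusted p = 6.10e-14). Among the 4 surfactant proteins Sftpb thus had the lowest level per length in every lung library, and Sftpc the highest.

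The genes that support surfactant were less of a kind. Lamp3, a membrane protein of the lamellar bodies in which surfactant is stored, measured 59.8, 39.2 and 74.6 FPKM in lung and at most 0.179 FPKM elsewhere. Slc34a2, a phosphate transporter, measured 192, 122 and 311 FPKM in lung and at most 0.904 FPKM elsewhere (7.32 ± 0.19). Cxcl15, a chemokine made by lung epithelium, measured 314, 132 and 265 FPKM against at most 0.155 FPKM (7.76 ± 0.18). Chil1, a chitinase-like protein without enzyme activity, differed by 6.55 ± 0.36. Lpcat1, which builds dipalmitoyl phosphatidylcholine, the main surfactant lipid, measured 65.4, 50.8 and 84.0 FPKM against 1.02 to 3.35 FPKM (4.495 ± 0.14, adjusted p = 3.71e-12). Other type 2 markers were not highest in lung. Napsa, a protease that processes surfactant protein B, measured 64.9 to 80.2 FPKM in lung and 318 to 574 FPKM in kidney, and S100g, a calcium-binding protein, measured 35.6 to 54.7 FPKM in lung and 460 to 1037 FPKM in kidney. Both were nevertheless higher in lung than the mean of the 4 organs (3.64 ± 0.16 and 2.92 ± 0.27), and liver, muscle and heart held at most 1.61 FPKM of either.

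The general enzymes that make phospholipids and fatty acids did not share this pattern. Of 14 tested members of the surfactant lipid list 3 were higher and 5 lower, not far from the 31.1% and 39.9% of all genes. The counts thus do not set the list apart. Its median of -0.40 was positive on the TPM scale (0.62), under quantile normalization (0.19) and without mitochondrial genes (0.33). Elovl1, which elongates long saturated fatty acids, was higher in lung (1.99 ± 0.16), with 60.6, 37.0 and 72.8 FPKM against at most 36.6 FPKM in the other organs. Chpt1, which makes phosphatidylcholine from diacylglycerol, measured 7.05, 7.93 and 9.08 FPKM in lung and 24.0 to 198 FPKM elsewhere, and was lower than in each organ (-2.64 ± 0.14, adjusted p = 6.48e-10). Exons of Elovl1 overlap those of Cdc20 and exons of Chpt1 those of Sycp3, and strandedness is not given, so their reads are uncertain. The same holds below for Hopx, Egfl7, Ramp2, Mfap4, Acadvl, Tpi1, Pfkm, Coq8a, Bmp6, Myl2, Myl3 and Tnni3, among others. Lpin1, a phosphatidate phosphatase, was lower as well (-2.35 ± 0.52, adjusted p = 0.000991).

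Genes of alveolar type 1 cells, which cover most of the gas-exchange surface, were higher for 14 of 15 tested members (median 4.31, Pdpn was not analysed here), with 5 of the 15 admitted only through lung and 9 of the other 10 higher. Ager, a receptor for advanced glycation end products at the basal side of these cells, measured 632, 701 and 657 FPKM in lung and at most 0.490 FPKM in the other organs. The lung values were tight and far from all others, and Ager had the smallest p-value of all genes (9.02 ± 0.11, adjusted p = 4.47e-16). Aqp5, a water channel of the apical membrane, measured 118, 100 and 106 FPKM against at most 0.328 FPKM (6.65 ± 0.09). Cldn18, a tight junction protein, measured 67.8, 78.4 and 98.8 FPKM against at most 0.204 FPKM (6.28 ± 0.10). Gprc5a, an orphan receptor induced by retinoic acid, measured 170, 202 and 177 FPKM against at most 2.1 FPKM (6.73 ± 0.21). Akap5, a scaffold for protein kinase A, and Emp2, a tetraspan membrane protein, differed by 5.10 ± 0.11 and 4.88 ± 0.12. Hopx, a homeodomain-only protein known in type 1 cells and heart, was less restricted: it measured 276, 403 and 208 FPKM in lung, 87.7 to 103 FPKM in heart and 33.0 to 41.2 FPKM in liver, and at most 4.01 FPKM in kidney and muscle. Lung was above heart in every library (4.31 ± 0.20 against the mean of 4 organs).

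Sodium uptake through the epithelial sodium channel helps clear fluid from the airspaces. All 3 channel subunits were higher in lung. Scnn1a measured 58.9, 97.7 and 89.4 FPKM against 41.6 to 44.4 FPKM in kidney (4.10 ± 0.14), Scnn1b measured 28.9, 54.9 and 40.2 FPKM against 19.97 to 27.58 FPKM in kidney (4.15 ± 0.15), and Scnn1g measured 29.8, 29.5 and 32.3 FPKM against 14.5 to 16.1 FPKM in kidney (3.96 ± 0.08). Kidney came next for each, and the lung and kidney values did not overlap. Of 12 tested members of the ion and water list 8 were higher and 2 lower, with 3 admitted only through lung. The water channel Aqp4 was lower (-0.96 ± 0.23), with 0.904 to 1.86 FPKM in lung and 16.3 to 17.6 FPKM in kidney, and was not called on the TPM scale or without kidney.

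Club and secretory cell genes were also far higher in lung. Of 14 tested members 13 were higher (median 5.01), 11 of them than in each organ, with 8 admitted only through lung and 5 of the other 6 higher. Scgb1a1, the main secreted protein of club cells, measured 40620, 33350 and 20870 FPKM in lung and took 1.53% to 3.03% of the reads there. The 12 other libraries held between 0 and 24.1 FPKM, the highest of them in heart. Its difference of 13.40 ± 0.61 was the largest of all genes, with an adjusted p of 1.38e-10. Lung replicate 3 was the lowest of the 3 and still far above every library of the other organs. Its relatives were also high: Scgb3a2 measured 553, 664 and 386 FPKM (8.90 ± 0.16) and Scgb3a1, whose upstream sequence is shown above, measured 247, 373 and 105 FPKM (7.04 ± 0.28), against at most 2.26 FPKM for either elsewhere. Bpifa1, a secreted airway defense protein, measured 223, 583 and 148 FPKM (7.997 ± 0.26). Cbr2, a carbonyl reductase, measured 1880, 2699 and 1830 FPKM against at most 20.7 FPKM (8.502 ± 0.19), and Sec14l3, a lipid-binding protein, measured 242, 331 and 405 FPKM against at most 6.06 FPKM (7.60 ± 0.15).

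Airway enzymes of foreign-compound metabolism were shared with liver. Cyp2f2, a cytochrome P450 known for bioactivating naphthalene in club cells, measured 625, 1212 and 690 FPKM in lung and 209 to 763 FPKM in liver, so that the groups overlapped, and at most 4.87 FPKM elsewhere (6.45 ± 0.36). Cyp2b10 measured 75.9, 191 and 98.4 FPKM in lung and 27.7 to 77.2 FPKM in liver (5.08 ± 0.39). Cyp2s1, another cytochrome P450, was higher in lung than in each organ (3.74 ± 0.16). Cyp4b1 measured 190, 340 and 226 FPKM in lung and 429 to 773 FPKM in kidney. Of the 18 tested enzymes 15 were higher and none was lower (2 admitted only through lung), with a median of 1.62 against the mean of 4 organs and of 0.51 against liver alone.

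Ciliated cell genes were lower in level and still set lung apart. Of 17 tested members 16 were higher (median 2.56), 15 than in each organ, but 12 of the 17 were admitted only through lung, and of the other 5, 4 were higher and 1 lower. Foxj1, the factor that switches on motile cilia, measured 23.02, 55.19 and 29.18 FPKM in lung and at most 0.3997 FPKM elsewhere (4.97 ± 0.18, adjusted p = 1.34e-11). Dynlrb2, a dynein light chain, measured 33.8, 36.9 and 22.6 FPKM against at most 0.178 FPKM (4.92 ± 0.12). Ccdc153 and Rsph1, proteins of the ciliary axoneme, differed by 4.73 ± 0.13 and 3.61 ± 0.18, and Cdhr3, a cadherin of ciliated cells, by 3.49 ± 0.13. Tppp3, a tubulin-binding protein, measured 97.96 to 140.7 FPKM in lung and 14 to 25.81 FPKM in muscle (4.74 ± 0.17). Replicate 2 was the highest of the 3 lung libraries over both airway lists, with a mean log2(FPKM + 1) of 3.64 for ciliated and 6.93 for club cell genes. Mlf1 was the exception, at 3.75 to 6.46 FPKM in lung and 187 to 352 FPKM in muscle (-0.90 ± 0.16). Its sign turned with a pseudocount of 0.1 (0.30), with voom (0.98) and without muscle (0.61).

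**Figure D2:**
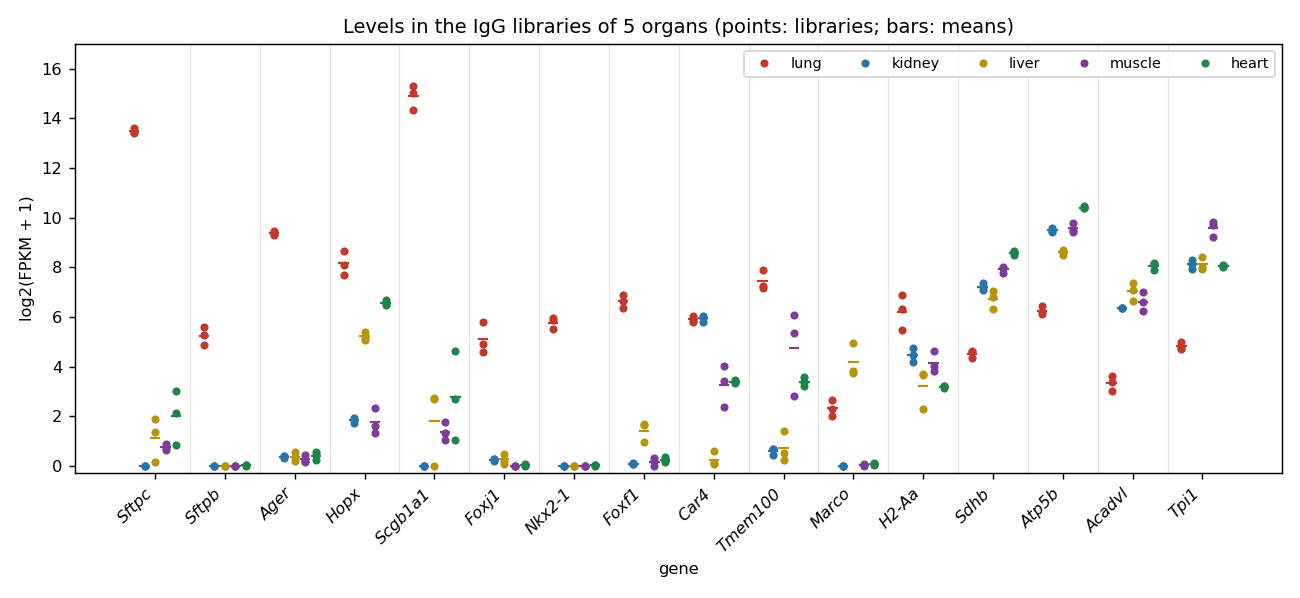
Points give log2(FPKM + 1) of 16 genes in each of the 15 IgG libraries, colored by organ, with a bar at each organ mean. Epithelial genes such as Sftpb and Nkx2-1 are at or near 0 outside lung, Car4 and Hopx are shared with kidney or heart, and Sdhb, Atp5b, Acadvl and Tpi1 are lowest in lung.

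Transcription factors of lung development and identity were higher for 22 of 23 tested members (median 2.52, 5 admitted only through lung). Nkx2-1, the factor that specifies lung epithelium, measured 44.2, 60.5 and 57.7 FPKM in lung. It was at 0 in 10 of the other 12 libraries and at most 0.0193 FPKM in the remaining 2 (5.77 ± 0.09, adjusted p = 4.05e-15). Nkx2-1 lies at chr12:56531958-56536908 (GRCm38) and overlaps in part the span of Gm26973, a predicted gene on the opposite strand, which measured 6.45, 5.74 and 6.90 FPKM in lung and 0 elsewhere. Foxf1, a factor of lung mesenchyme and capillaries, measured 81.1, 116 and 100 FPKM against at most 2.20 FPKM (6.15 ± 0.15), and its relative Foxf2 differed by 3.55 ± 0.11. Tbx4, which marks lung mesenchyme, measured 16.0, 19.5 and 25.8 FPKM against at most 1.12 FPKM (4.16 ± 0.12). Tbx2, Hoxa5 and the airway factor Sox2 differed by 3.38 ± 0.10, 3.14 ± 0.12 and 3.03 ± 0.13. Sox9, a factor of the embryonic lung tips and of cartilage, was lower (-0.90 ± 0.19, adjusted p = 0.000670), with 0.0568 to 0.232 FPKM in lung and 0.231 to 3.03 FPKM elsewhere.

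Endothelial genes were higher throughout, and here none of the 18 pan-endothelial members entered only through lung. Of these 17 were higher (median 2.32), 11 than in each organ. Cldn5, the claudin of endothelial tight junctions, measured 315.2, 345.5 and 227.4 FPKM in lung and 5.44 to 37.4 FPKM elsewhere (4.36 ± 0.24, adjusted p = 1.12e-09). Vwf, the carrier of clotting factor VIII, measured 46.0, 68.8 and 56.2 FPKM against 0.474 to 22.2 FPKM (3.47 ± 0.16), and Cdh5, the endothelial cadherin, measured 151, 122 and 191 FPKM against 7.30 to 68.2 FPKM (2.63 ± 0.15). Icam2, Sox18 and Egfl7 differed by 3.44 ± 0.22, 2.87 ± 0.16 and 2.81 ± 0.18. Heart was nearest to lung in this list, with a median difference of 1.33, and liver farthest, with 3.31.

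Genes known from lung capillaries went further: 19 of 19 were higher (median 3.38), 13 than in each organ, with 3 admitted only through lung. Fendrr, the noncoding RNA next to Foxf1, measured 55.9, 33.1 and 45.8 FPKM against at most 1.66 FPKM (5.21 ± 0.14). Hpgd, which breaks down prostaglandins, measured 372, 564 and 216 FPKM against 76.0 to 90.9 FPKM in liver and at most 8.04 FPKM elsewhere (5.11 ± 0.21). Tmem100, a membrane protein induced by BMP signals, measured 236, 144 and 153 FPKM and varied widely in muscle, from 5.98 to 67.3 FPKM (5.08 ± 0.47). Prx, known from Schwann cells and lung capillaries, measured 36.1, 53.6 and 54.7 FPKM against at most 4.73 FPKM (4.65 ± 0.12). Ace, which converts angiotensin I in the lung circulation, measured 209, 218 and 282 FPKM against at most 54.5 FPKM (3.98 ± 0.19). Car4, a membrane carbonic anhydrase of the aerocyte capillary cells, was shared with kidney: it measured 55.3, 64.7 and 56.2 FPKM there and 55.2 to 65.4 FPKM in kidney, and the values overlapped. Against the mean of 4 organs it was higher (2.69 ± 0.24).

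Receptors and enzymes of vessel tone were higher for 15 of 17 tested members (median 1.81). Calcrl and Ramp2, which together form a receptor for adrenomedullin, measured 148 to 167 and 78.9 to 136 FPKM in lung, against at most 11.7 and 9.79 FPKM elsewhere (4.69 ± 0.18 and 4.22 ± 0.17). Ptgis, the prostacyclin synthase, and Pde5a, the phosphodiesterase that degrades cyclic GMP, differed by 2.88 ± 0.20 and 2.79 ± 0.20. Agtr1a, the main angiotensin II receptor, was lower, with 5.25, 6.69 and 5.61 FPKM in lung and 33.6 to 36.7 FPKM in liver (-1.05 ± 0.12), though it was not called on the TPM scale. Of 12 eicosanoid genes 9 were higher and 1 lower. Alox5ap, needed to make leukotrienes, measured 37.0, 57.5 and 14.8 FPKM against at most 6.73 FPKM (3.13 ± 0.30), Ptgs1 differed by 1.71 ± 0.22, and Ptgds, a prostaglandin D synthase, was lower, with 123 to 159 FPKM in heart (-2.81 ± 0.25).

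The BMP pathway, mutated in hereditary pulmonary hypertension, was higher in lung at several levels, in 17 of 20 tested members (median 1.61, 1 admitted only through lung). The endothelial type I receptor Acvrl1 measured 146, 146 and 152 FPKM against at most 12.9 FPKM (4.30 ± 0.11, adjusted p = 7.11e-13), its type II partner Bmpr2 differed by 2.35 ± 0.18 and the co-receptor Eng by 2.04 ± 0.10. The ligand Bmp6 measured 54.4, 78.9 and 77.7 FPKM against at most 38.7 FPKM (2.40 ± 0.15). The inhibitor Smad6 and the target Id1 differed by 3.81 ± 0.14 and 2.41 ± 0.18. Exons of Acvrl1 and of Eng overlap those of other genes too. In the Wnt, Hedgehog, Notch and FGF pathways 21 of 26 were higher and 2 lower (median 1.18), 7 of them admitted only through lung. Hey1, a Notch target, measured 29.99, 30.26 and 26.71 FPKM against at most 6.88 FPKM (3.41 ± 0.14). Wnt3a and the Wnt enhancer Rspo1 differed by 2.49 ± 0.08 and 2.30 ± 0.15, and the receptor Fgfr3 by 2.54 ± 0.15.

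Genes of oxygen sensing moved in different directions. Epas1, the hypoxia-inducible factor of endothelium, measured 509, 765 and 773 FPKM in lung and 30.7 to 135 FPKM elsewhere (3.16 ± 0.15, adjusted p = 2.01e-10). Vegfa, a hypoxia target and the main angiogenic factor, measured 186, 112 and 156 FPKM against 33.2 to 65.9 FPKM (1.74 ± 0.14). Egln3, a prolyl hydroxylase that marks hypoxia-inducible factors for destruction, measured 0.579, 0.787 and 0.709 FPKM against 6.31 to 124 FPKM, and was lower than in each organ (-3.70 ± 0.21, adjusted p = 9.78e-10). Egln1 was lower too (-1.30 ± 0.14), but was not called on the TPM scale. Hif1a, the broadly expressed factor, was at 5.50 to 6.79 FPKM in lung (-0.51 ± 0.12) and its difference turned positive on the TPM scale (0.43) and without mitochondrial genes (0.14). Of 9 tested members 2 were higher and 4 lower, not far from the 31.1% and 39.9% of all genes, so the counts do not set the list apart.

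Mesenchymal genes were higher more unevenly. Of 17 fibroblast genes 15 were higher and 0 lower (median 1.78, 3 admitted only through lung), 5 of them than in each organ. Mfap4, a protein of elastic fibers, measured 49.8, 41.4 and 73.9 FPKM against at most 4.01 FPKM (4.65 ± 0.20). Inmt, an indole methyltransferase, measured 619, 595 and 766 FPKM against 5.54 to 262 FPKM (3.54 ± 0.60), and Npnt, an integrin ligand of basement membranes, measured 45.3, 31.0 and 80.2 FPKM in lung and 35.2 to 38.1 FPKM in kidney, so these 2 groups overlapped. Gpc3 and Tcf21 differed by 3.02 ± 0.15 and 2.70 ± 0.23. Of 17 elastic fiber genes 15 were higher and 1 lower, with a median of 1.12 against the mean of 4 organs but of 0.03 against heart alone. Eln, elastin itself, measured 16.1, 23.8 and 15.3 FPKM against at most 9.24 FPKM (2.30 ± 0.14), Mfap2 and Ltbp2 differed by 4.54 ± 0.23 and 2.87 ± 0.15, and Lox, which crosslinks elastin, overlapped with muscle (2.39 ± 0.40). Fbln2 was lower (-1.18 ± 0.13). Of 25 collagen and basement membrane genes 14 were higher, 2 lower and 9 not called, with a median of 0.60 against the mean of 4 organs but of -0.30 against heart alone. Lamb3, a laminin chain, differed by 2.29 ± 0.15, while Col4a4 measured 9.54 to 13.7 FPKM in lung and 19.9 to 25.2 FPKM in kidney. Replicate 3 was the highest lung library over fibroblast genes, with a mean log2(FPKM + 1) of 4.53 against 3.91 and 3.49.

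Smooth muscle and pericyte genes split. Of 14 tested members 11 were higher and 2 lower (median 1.30). The median was 2.14 against kidney and 3.07 against liver, but 0.30 against muscle and 0.49 against heart. Cox4i2, a lung isoform of a cytochrome oxidase subunit that lung vascular smooth muscle uses, measured 60.6, 54.1 and 40.6 FPKM against at most 8.64 FPKM (4.07 ± 0.18), and Higd1b, a pericyte gene, measured 23.3, 21.1 and 18.5 FPKM against at most 9.96 FPKM (2.70 ± 0.12). Postn and the contractile protein Cnn1 differed by 2.85 ± 0.17 and 2.81 ± 0.12. Rgs5, a pericyte marker in most organs, was low instead: it measured 1.42, 4.85 and 1.33 FPKM in lung, 5.94 to 15.9 FPKM in kidney and liver and 88.3 to 147 FPKM in muscle and heart. All lung values lay below all others (-3.41 ± 0.26, adjusted p = 3.22e-08). Des, the intermediate filament of muscle, was lower through muscle and heart (-1.19 ± 0.12) and its sign turned without muscle (0.37).

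Alveolar macrophage genes were higher for 14 of 16 tested members (median 2.19, 4 admitted only through lung). Chil3, a chitinase-like protein, measured 279, 466 and 302 FPKM against at most 8.74 FPKM (6.22 ± 0.23). Ear2 and Ear1, eosinophil-associated ribonucleases with close sequence relatives, differed by 4.35 ± 0.25 and 3.31 ± 0.20, and Ear1 was at 0 in all 12 other libraries. Csf2ra, the receptor chain for the growth factor GM-CSF that these cells need, measured 46.4, 35.4 and 31.4 FPKM against at most 7.85 FPKM (2.62 ± 0.12). Marco, a scavenger receptor often used to name alveolar macrophages, measured 2.996, 3.952 and 5.338 FPKM in lung and 12.4 to 29.6 FPKM in liver, without overlap (1.25 ± 0.20 against the mean of 4 organs). Of 14 tested genes of monocytes and other macrophages 9 were higher and 4 lower. Their median was 1.39 against the mean of 4 organs and -0.06 against liver alone. Among the lower ones were the 3 complement genes C1qa, C1qb and C1qc, typical of tissue macrophages (-1.07 ± 0.24, -1.24 ± 0.20 and -1.33 ± 0.17). None of these 3 was called on the TPM scale.

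Genes of circulating cells were higher in lung, with a wide spread between its libraries. All 9 tested neutrophil genes were higher than in each organ (median 3.52, 4 admitted only through lung). S100a8, a calcium-binding protein abundant in neutrophils, measured 750, 603 and 36.9 FPKM in lung, against at most 15.9 FPKM elsewhere (5.54 ± 0.74, adjusted p = 1.01e-05). Without lung replicate 3 the difference was 6.92, without replicate 1 it was 4.77 and without replicate 2 it was 4.92. S100a9, its partner, measured 1392, 790 and 76.1 FPKM (5.66 ± 0.70, 6.92 without replicate 3 and 4.83 without replicate 1). Retnlg measured 257, 295 and 18.1 FPKM (5.32 ± 0.65, 6.60 without replicate 3, 4.72 without replicate 1 and 4.62 without replicate 2). The chemokine receptor Cxcr2 and the protease Mmp8 were also lowest in replicate 3, and the median of the list without it was 4.43. Many T, B and NK cell genes did not pass the filter, and the 5, 7 and 4 that were tested were all higher, 4 of each list being admitted only through lung. That holds for all 4 NK cell genes and for 4 of the 5 T cell genes, so these counts are not independent of the filter. Igkc, an antibody light chain, measured 133, 121 and 47.4 FPKM against at most 14.1 FPKM (4.92 ± 0.31). Cd79a, of the B cell receptor, measured 32.0, 12.4 and 13.0 FPKM against at most 0.679 FPKM (3.85 ± 0.21). The NK cell granzyme Gzma was highest in replicate 1, at 46.3 FPKM against 10.7 and 15.8 FPKM (3.80 ± 0.31, and 3.22 without replicate 1). Of the 7 tested platelet genes all were higher, 3 of them admitted only through lung. The platelet chemokine Ppbp measured 38.2, 19.9 and 8.12 FPKM against at most 1.93 FPKM (3.59 ± 0.33).

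Hemoglobin genes were higher in lung on average without a gap to the other organs. Hbb-bs, an adult beta globin, measured 7141, 3341 and 644 FPKM in lung, 314 to 1546 FPKM in heart and 58.8 to 561 FPKM elsewhere (2.90 ± 0.65, adjusted p = 0.00104). The lung and heart values overlapped. Without lung replicate 3 the difference was 3.88 and without replicate 1 it was 2.14. The alpha globin Hba-a1 differed by 2.91 ± 0.67 (3.89 without replicate 3, 2.23 without replicate 1). The globin genes have near-identical copies, so the split of reads between them is uncertain. Of 7 tested erythroid genes 6 were higher (median 2.87, 3.69 without replicate 3 and 2.14 without replicate 1), and none separated the 3 lung libraries from the other 12. Whether the amount of blood in a sample plays a part in these values was not tested.

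**Figure D3:**
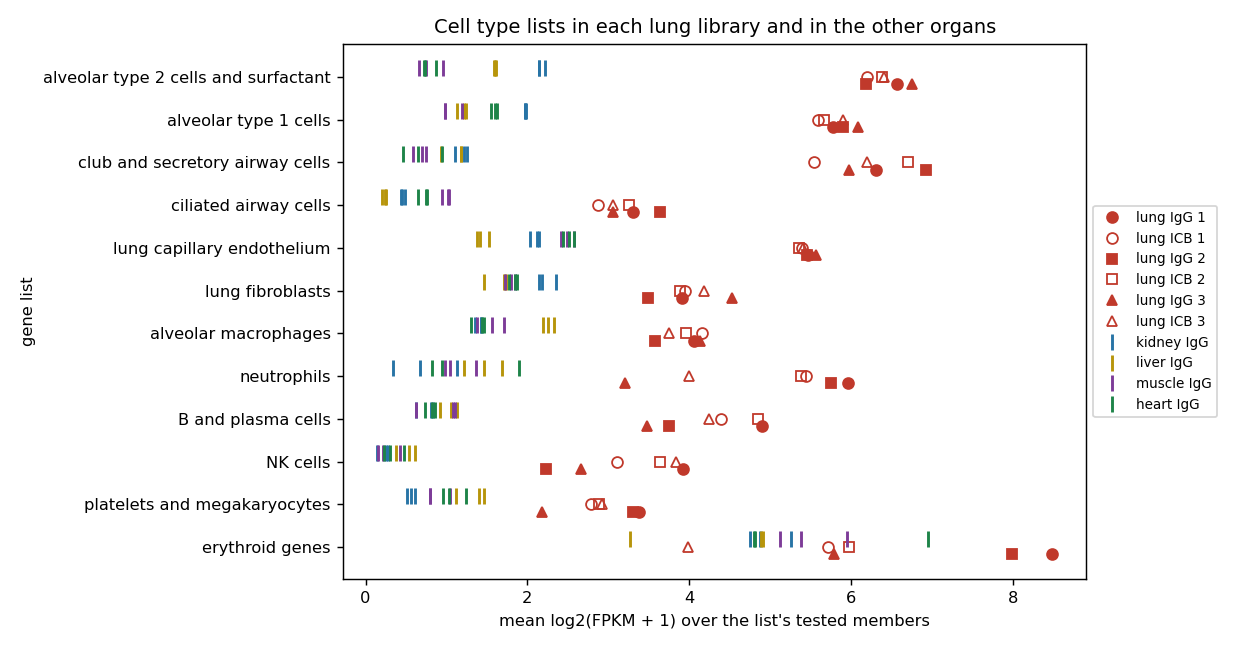
Each row is a cell type list, and symbols give the mean log2(FPKM + 1) of its tested members in single libraries, filled for lung IgG, open for lung ICB and as ticks for the other organs. Over neutrophil genes lung IgG replicate 3 is at 3.20 and the other 2 at 5.75 and 5.97, while over capillary genes the 3 lie between 5.46 and 5.56.

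MHC class II genes, which present antigen to helper T cells, were higher for 8 of 8 tested members (median 2.17, 2 admitted only through lung). H2-Aa measured 116, 43.0 and 79.2 FPKM against 3.90 to 25.9 FPKM (2.46 ± 0.30), and the invariant chain Cd74 measured 423, 187 and 319 FPKM against 17.8 to 102 FPKM (2.45 ± 0.32). All lung values lay above all others for both, with replicate 1 highest. MHC class I genes and the loading machinery were higher for 12 of 12 (median 1.01), but the median difference from liver alone was -0.18. H2-D1 measured 498, 430 and 348 FPKM in lung and 524 to 634 FPKM in liver (1.33 ± 0.18), and H2-Q4, which has close sequence relatives, differed by 2.09 ± 0.22.

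Genes of mitochondrial energy production were lower in lung. All 23 tested nuclear genes of oxidative phosphorylation were lower (median -2.90, and -1.86 on the TPM scale), beside 39.9% of all genes. On the main scale 22 of them were lower than in each organ. That class shrank from 564 to 94 genes on the TPM scale and was not counted by list there, so these counts depend on the scaling. Atp5b, the catalytic subunit of ATP synthase, measured 68.2, 71.7 and 87.0 FPKM in lung, 363 to 410 FPKM in liver, 686 to 891 FPKM in kidney and muscle and 1324 to 1409 FPKM in heart. Lung was lowest and heart highest, and neither overlapped with another organ (-3.27 ± 0.13, adjusted p = 3.68e-11). Cyc1 and Uqcrfs1, of respiratory complex III, differed by -3.23 ± 0.14 and -3.22 ± 0.15, Cox5a, of complex IV, by -3.18 ± 0.13, and Sdhb, of complex II, by -3.10 ± 0.14, with 22.8, 23.7 and 19.0 FPKM in lung and 78.8 to 398 FPKM elsewhere. Atp5g1, which forms the ring of ATP synthase, measured 5.515, 5.485 and 4.497 FPKM in lung against 40.2 to 271 FPKM (-4.15 ± 0.14). The 13 genes of the mitochondrial genome were lower too (median -3.21, -2.14 on the TPM scale and -1.22 under quantile normalization). mt-Nd1 measured 1730, 2825 and 1221 FPKM in lung against 8342 to 35120 FPKM (-3.21 ± 0.31). mt-Nd4l and mt-Co3 showed the largest differences among them (-6.34 ± 0.56 and -5.66 ± 0.37), although mitochondrial genes have near-identical nuclear copies, so the reads of each are uncertain.

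The fuel pathways that feed mitochondria followed. All 13 citrate cycle genes were lower (median -2.55, and -1.545 on the TPM scale), among them Fh1, the fumarase (-3.25 ± 0.14). On the main scale 8 of the 13 were lower than in each organ. All 17 genes of fatty acid oxidation were lower (median -2.81, and -1.84 on the TPM scale), and on the main scale 15 were lower than in each organ. Acadvl and Acadm, the dehydrogenases for very long and medium chains, differed by -3.68 ± 0.17 and -3.47 ± 0.13, and Ppara, the nuclear receptor that drives the pathway, measured 0.288, 0.628 and 0.908 FPKM against 3.05 to 50.1 FPKM (-3.26 ± 0.27). Glycolysis was lower for 18 of 23 and higher for 2 (median -1.54). Against liver alone its median was -0.19, on the TPM scale it was -0.50, and 7 of the 23 members changed sign on that scale. Tpi1, triose phosphate isomerase, measured 25.7, 31.1 and 25.1 FPKM in lung against 243 to 916 FPKM, and was lower than in each organ (-3.66 ± 0.15). Pfkm, the muscle phosphofructokinase, was lower mostly through muscle and heart and overlapped with liver (-3.67 ± 0.14, -2.46 without muscle and -3.04 without heart).

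Other genes with the largest deficits in lung were enzymes and transporters of several organs. Ephx2, a soluble epoxide hydrolase, measured 1.29, 1.27 and 0.884 FPKM in lung and between 29.5 and 440 FPKM in all other libraries (-5.86 ± 0.15, adjusted p = 4.91e-13). Fitm1, which helps form lipid droplets, measured 0.415, 0.540 and 0.449 FPKM against 13.2 to 251 FPKM (-5.31 ± 0.18). Slc38a3, an amino acid transporter, differed by -4.85 ± 0.18, and Slc47a1, which exports organic cations, by -4.41 ± 0.17. Agt, the precursor of angiotensin, measured 0.461, 1.38 and 0.737 FPKM in lung and at least 4.27 FPKM in every other library, with 800 to 832 FPKM in liver (-4.60 ± 0.17), while Ace, which acts further down the same pathway, was higher in lung than in each organ. Got1 and Gpd1, of the malate-aspartate and glycerol phosphate shuttles, differed by -4.75 ± 0.31 and -4.12 ± 0.14, and Coq8a, needed to make coenzyme Q, by -4.48 ± 0.18.

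Lung also held transcripts of atrial heart muscle at levels above those in the heart libraries. Myl7, the atrial form of the regulatory myosin light chain, measured 73.0, 77.3 and 57.0 FPKM in lung and 0 to 0.930 FPKM in heart, and was higher in lung than in each organ (5.69 ± 0.17, adjusted p = 2.68e-12). Myl4, the atrial essential light chain, measured 8.86, 10.2 and 7.69 FPKM in lung and 0.245 to 0.427 FPKM in heart (2.80 ± 0.11). Sln, a calcium pump regulator found in atria and skeletal muscle, measured 7.84, 8.84 and 6.61 FPKM in lung, 4.03 to 4.46 FPKM in muscle and 0 to 0.125 FPKM in heart (2.51 ± 0.08). Mybphl, an atrial relative of myosin-binding protein C, measured 4.18, 4.38 and 3.71 FPKM in lung and at most 0.0886 FPKM elsewhere (2.33 ± 0.06). These 4 genes are known from atria, and the lung values exceeded the heart values in every library. The heart libraries held at most 0.930 FPKM of any of them, and whether atrial tissue was part of the heart samples was not tested. Ventricular light chains showed the reverse: Myl2 measured 0.0860 to 0.734 FPKM in lung and 2829 to 3142 FPKM in heart, and Myl3 0.611 to 1.35 FPKM in lung and 2432 to 2501 FPKM in heart. Genes shared by atria and ventricles were low in lung but present. Myh6 measured 17.1, 17.4 and 29.7 FPKM in lung, 5340 to 6346 FPKM in heart and at most 0.920 FPKM in the other 3 organs, and Tnni3 measured 13.9, 13.9 and 11.5 FPKM in lung and 1915 to 2057 FPKM in heart. Nppa, an atrial hormone that ventricles also make, was higher in heart (51.7 to 110 FPKM) than in lung (6.59, 6.17 and 2.89 FPKM). Its difference from the mean of 4 organs (0.88 ± 0.26) was not called without lung replicate 1 (0.71) or replicate 2 (0.75). Of the 15 genes of the list 7 were higher and 7 lower than the mean of 4 organs, and their median of 0.09 turned negative without lung replicate 3 (-0.17) and without muscle replicate 1 (-0.08). As background, the pulmonary veins of mice carry a sheath of heart-type muscle, and whether vessel tissue was part of the lung samples was not tested.

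**Figure D4:**
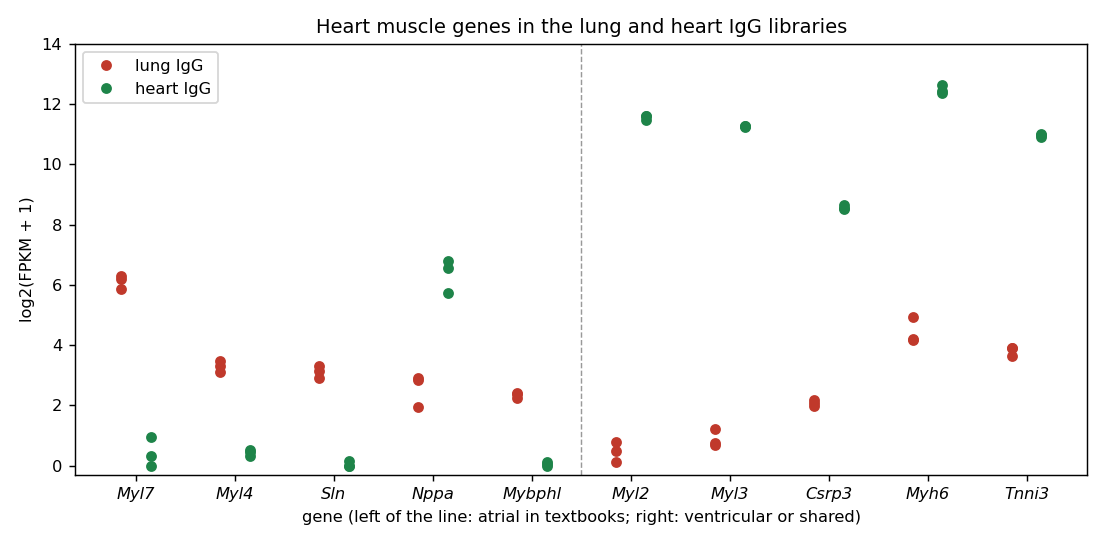
Points give log2(FPKM + 1) in the 3 lung and 3 heart IgG libraries for genes known from atria (left of the dashed line) and for ventricular or shared heart genes (right). Myl7, Myl4, Sln and Mybphl are higher in lung and near 0 in heart, Nppa is higher in heart, and the 5 genes on the right are far higher in heart.

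Genes of the mesothelium, the covering of the lung surface, were higher for 6 of 7 tested members (median 3.03, 2 admitted only through lung). Msln, mesothelin, measured 22.4, 21.9 and 21.4 FPKM against at most 1.14 FPKM (3.95 ± 0.12), and Krt19, a keratin shared with airway epithelium, measured 59.3, 82.0 and 72.9 FPKM against at most 4.75 FPKM (5.16 ± 0.16). Wt1 was lower (-0.25 ± 0.07, adjusted p = 0.00730), at 0.260 to 0.384 FPKM in lung, and its difference was positive on the TPM scale (0.01) and with voom (1.03).

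The comparison was repeated in 15 libraries of the same organs from the ICB animals, which share no library with the first. There 4866 genes (33.4%) were higher in lung and 6069 (41.7%) lower. Of the 4531 genes higher with IgG, 4271 were called higher again, 260 were not called and none was called lower. Of the 5816 lower genes, 5478 were called lower again, none was called higher and the rest were not called. Of the 1186 genes higher in lung than in each organ, 1185 were called higher than the mean of 4 organs with ICB, the exception being Snord72, and all 564 genes on the low side were called lower. Sftpc measured 8025, 10720 and 9336 FPKM in the ICB lungs and at most 5.15 FPKM in the other ICB organs. Scgb1a1 measured 13220, 18990 and 9239 FPKM in the ICB lungs. The median of the erythroid list was 1.34 with ICB and 2.87 with IgG, a difference that was not tested as a list.

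The difference between the 2 treatments in the lung contrast was tested for every gene in the 30 libraries. Of 14561 genes 4 (0.0275%) passed, all with a smaller lung excess under ICB: Pla2g1b, Gm26973, Mybphl and Sfta2. At an unadjusted p under 0.05 there were 239 genes in one direction and 321 in the other. Together these were a smaller share of the 14561 genes than the 0.05 that this threshold passes where nothing differs. With limma-voom on the recovered reads 0 genes passed in either direction. Leaving out lung IgG replicate 1, 2 or 3 or lung ICB replicate 2 raised the count to 38, 10, 48 and 16. Sfta2, a surfactant-associated secretory protein, measured 38.4, 28.1 and 25.6 FPKM in the IgG lungs and 15.1, 22.5 and 14.5 FPKM in the ICB lungs, so the values did not overlap (difference -0.79 ± 0.14, adjusted p = 0.0171). It was not called without lung ICB replicate 1 (adjusted p = 0.117) or replicate 3 (adjusted p = 0.0991). Scgb1a1, Sftpc and Nkx2-1 did not pass this test.

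**Figure D5:**
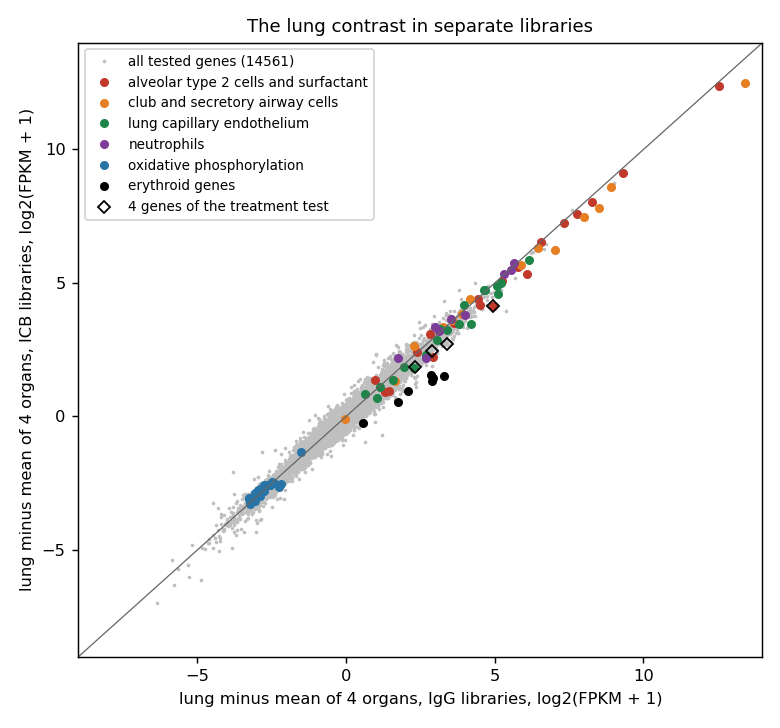
Each point is a gene, placed at its lung difference from the mean of 4 organs in IgG (x) and ICB (y) libraries on the log2(FPKM + 1) scale, with members of 6 lists in color and the line of equality. Most genes lie along the line, the 7 erythroid genes lie below it, and open diamonds mark the 4 genes of the treatment test.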

How the data were processed

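Bulk RNA-sequencing libraries of flash-frozen tissue were made with an Illumina TruSeq kit from total RNA, per the labels' protocols. The authors deposited 1 table of FPKM values per gene. Per the submitters' processing notes HISAT2 2.1.0, edgeR and the mm10 build were used, and the counter, annotation and strandedness were not given in the sources used here. Every value was a whole number of reads within 0.001 once depth and length were recovered, for 18781 of 18781 rows. Of these, 15 rows without a symbol (0.0834% to 0.374% of lung reads) and 3 symbols on more than 1 row were left out. The normalization implied by the values multiplied the library size of lung by 1.45 to 1.57, which lowers lung FPKM. For liver the factor was 0.55 to 0.60, which raises liver FPKM.

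Differences were tested with limma 3.58.1 in R 4.3.3 (two-sided moderated test, trended prior variance, Benjamini-Hochberg adjustment over all 14561 genes) on log2(FPKM + 1), with 5 group means of 3 libraries. No 2 libraries of a group agreed within sampling noise. The fit was tested on simulated data. Alternatives changed the pseudocount, filter, scaling, model and libraries. Members and gene lists were chosen with earlier results of these data known. Named genes were the 15 largest differences in each direction among called genes whose libraries did not overlap, passing over predicted genes, plus up to 6 members per list with the largest differences, members opposite to their list and 11 fixed lung genes. Lamp3, Napsa, S100g, Hopx, Sox2, Myh6, Tnni3, Nppa, mt-Nd1 and Snord72 fall outside this rule and were chosen after their values were seen. For the comparison of treatments the 5 smallest p-values in each direction could be named. The labels do not say what the title numbers mark, and the test used no block for them.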

Additional observations from a re-analysis of the deposited data

Results flagged for a closer look

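The lung difference from the mean of 4 organs was smaller with ICB than with IgG, by a test of that difference in 30 libraries, for 4 genes. Pla2g1b, a secreted phospholipase, had a difference of 3.40 with IgG and 2.70 with ICB (change -0.695 ± 0.111, adjusted p = 0.0142), with 12.9, 8.27 and 8.83 FPKM in the IgG lungs and 5.59, 5.22 and 6.03 FPKM in the ICB lungs. Gm26973, on the strand opposite Nkx2-1, had 2.88 and 2.44 (change -0.440 ± 0.071, adjusted p = 0.0142). Mybphl, an atrial muscle gene, had 2.33 and 1.84 (change -0.486 ± 0.082, adjusted p = 0.0171). Sfta2, a surfactant-associated protein, had 4.93 and 4.14 (change -0.792 ± 0.135, adjusted p = 0.0171). For each of the 4 genes all 3 IgG lungs lay above all 3 ICB lungs. With limma-voom and with a pseudocount of 0.1 no gene passed, and without the trend Pla2g1b and Sfta2 passed. On the TPM scale 1 gene passed that is none of these 4, whose adjusted p-values were 0.12 for Pla2g1b, 0.642 for Gm26973, 0.153 for Mybphl and 0.0619 for Sfta2. Without lung ICB replicate 1 the adjusted p was 0.0702 for Mybphl and 0.117 for Sfta2, and without lung ICB replicate 3 it was 0.0991 for Sfta2.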

How the results depend on the processing

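With the filter applied in every organ, 1855 genes were higher, 3410 lower and 271 higher than in each organ, among fewer genes tested. On the TPM scale the counts were 9290, 2654, 2684 and, lower than in each, 94, and in the ICB libraries 10234 higher and 2497 lower. Scaling to a common sum without mitochondrial genes gave 7868, 3278, 1926 and 122, and a minimum log2 difference of 1 within the test gave 1541, 1614, 672 and 284. The cause was not tested. The count for ICB against IgG was 0 with a pseudocount of 0.1, 1 on the TPM scale, 2 without the trend and 0 with limma-voom, an alternative chosen after seeing the data. Leaving out 1 library at a time gave 4222 to 4717 genes higher, 5317 to 5951 lower, 1157 to 1224 higher than in each and 549 to 606 lower than in each. In the ICB libraries it gave 4482 to 5037 and 5599 to 6195, and for ICB against IgG 4 to 48.

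Signs turned for Mlf1 (0.30 with a pseudocount of 0.1, 0.98 with voom, 0.61 without muscle), Des (0.37 without muscle), Hif1a (0.43 TPM, 0.14 without mitochondrial genes), Myh6 (-0.19 without kidney) and Wt1 (0.012 TPM, 1.03 with voom). List medians turned with the filter in every organ for smooth muscle and pericytes (-0.15), monocytes (-0.36) and oxygen sensing (0.009). For oxygen sensing they also turned on the TPM scale (0.43), without mitochondrial genes (0.14) and without muscle (0.08). For surfactant lipids the medians were 0.62 on the TPM scale, 0.19 under quantile normalization, 0.33 without mitochondrial genes and 0.19 without liver. For cardiomyocytes they ranged from -0.17 to 0.264 over the libraries left out, with -0.17 without lung replicate 3, -0.08 without muscle replicate 1, and -1.53, -1.37 and -0.39 without kidney, liver and muscle. Over the named genes and alternatives, 5964 values kept direction and call, 53 lost the call and 9 turned.

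Deviations from the group means correlated at -0.042 to 0.385 (median 0.186) in 17 pairs of libraries with the same title number, 13 of them over 0.1. In 73 pairs with different numbers they correlated at -0.45 to 0.34 (median -0.049), 13 of them over 0.1. Same-numbered libraries thus tended to deviate together, a hint from the data and not the design, but 4 of the 17 pairs did not exceed 0.1. With the title number as a replicate block 4453 genes were higher and 5669 lower, 1182 higher than in each organ and 542 lower than in each. With 3 libraries in a group, no single library could be tested as standing apart.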
